A study of Mus musculus with 3 samples.

Results

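The genes described here are those whose RNA differed in the same direction between hematopoietic stem cells (HSCs) and multipotent progenitors (MPPs) of mouse bone marrow in both of the HSC fractions that were profiled. Each HSC library was set against the MPP library as log2 of the level plus 5 in HSCs over the level plus 5 in MPPs. A gene counted where both ratios had the same sign, and its shared ratio is the smaller in size of the 2. Of 23393 genes in the table, 11951 reached a mean of 50 across the libraries, and 10918 of these had a shared ratio.

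The marrow came from C57BL/6 mice, and each of the 3 populations gave 1 library. All were sorted from LSK cells, the lineage-negative fraction that carries Sca-1 and c-Kit. The HSC gate took cells with CD150 and without CD48 and divided them by a Map17-GFP reporter, named for Map17, another name of Pdzk1ip1, into GFP- and GFP+ HSCs. MPPs were cells with CD48 and without CD150, also negative for Map17-GFP, so the GFP- HSCs shared the reporter state of the MPPs and the GFP+ HSCs did not. Neither the age and sex of the mice nor the number of animals or cells pooled was stated in the labels. Levels are the authors' normalized counts, rounded to whole numbers, and are given in the order MPP, GFP- HSC, GFP+ HSC. With 1 library per population there is no replicate spread, and no test was made. Both ratios use the same MPP library, so an error in that library enters both of them, and the pair does not make 2 independent observations.

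HSCs are the rare cells that renew themselves and maintain all blood lineages, and most of them in the adult marrow rest outside the cell cycle. MPPs have lost lasting self-renewal, divide often and already transcribe genes of the myeloid and lymphoid lineages at low levels, which is called priming. CD150 and CD48, both receptors of the SLAM family, and Flt3, a cytokine receptor gained by progenitors, are the proteins commonly used to separate them.

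In size, 1310 genes (11.0% of those compared) were at least 2-fold higher in both HSC fractions than in MPPs, and 614 (5.14%) were at least 2-fold lower. At 4-fold the counts were 578 higher (4.84%) and 220 lower (1.84%). Counted at any size, 5462 genes (45.7%) were higher and 5456 (45.7%) lower, and 1033 (8.64%) had no shared ratio. The median ratio over all compared genes was -0.01 for GFP- HSCs and 0.01 for GFP+ HSCs on the log2 scale. The authors' normalization can centre the libraries on each other, so these medians do not show whether total RNA differed. The number of lower genes depended on the pair of fractions: with GFP+ HSCs alone, leaving out the GFP- library, it was 1029. The number of higher genes was 811 where a mean of 200 was required and 1977 where none was. Because both HSC libraries enter the mean, a gene read only in HSCs passes the filter more easily than one read only in MPPs. Higher genes made up 68.1% of the 2-fold genes, and 65.9% where no minimum was set. Genes at least 2-fold higher had low levels in MPPs, with a median of 77 there, 399 in the GFP- and 489.5 in the GFP+ fraction. Of these genes, 98 stood at 5 or less in MPPs and 31 were listed at 0. Genes at least 2-fold lower had medians of 942, 226 and 199.5 in the same order, and 1 was listed at 0 in both HSC fractions. Just past the 2-fold threshold lay Fam196b at 64, 133 and 187 on the higher side and Zfp217 at 623, 309 and 286 on the lower side. Just short of it lay Pkn3 at 739, 1481 and 1747, and Spc25, a kinetochore gene, at 2357, 1178 and 737. At the limit of the mean level, Lilrb4 was kept at 104, 16 and 30 and Gpr116 was left out at 0, 66 and 83.

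**Figure D1:**
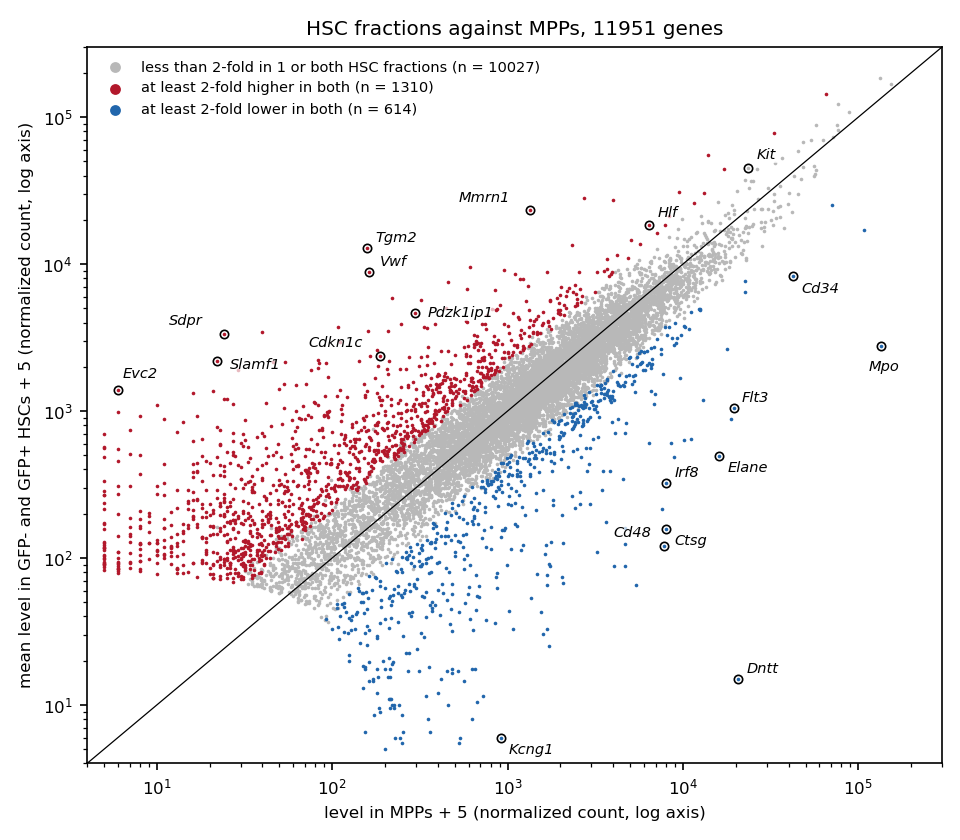
Mean level in the 2 HSC libraries against the level in MPPs, both plus 5 on log axes, for 11951 genes. Red points are the 1310 genes at least 2-fold higher in both HSC fractions, blue points the 614 at least 2-fold lower, grey points the others, and the line marks equal levels. The red genes reach furthest from the line at low MPP levels, where Evc2 and Slamf1 lie, while Mpo and Dntt are blue genes with high MPP levels.

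The sort genes came out as the gates select, which describes the sort and is not a finding. Slamf1, which encodes CD150 (chromosome 1, 171767131 to 171801184, GRCm38), stood at 17, 2144 and 2219. Cd48, its neighbour on chromosome 1 (171681245 to 171705258), stood at 7744, 168 and 64. Flt3 (chromosome 5, 147330741 to 147400489), which was not part of the gate, stood at 19467, 1253 and 829, and was thus 15.5-fold lower in GFP- and 23.5-fold lower in GFP+ HSCs. The 3 markers therefore matched the labels in every library. Cd34, the sialomucin that adult mouse HSCs largely lack, stood at 42578, 10319 and 6240, and Procr, the endothelial protein C receptor and a surface marker of HSCs, at 634, 2807 and 3776. The genes of the 2 proteins that all LSK cells carry differed less, with Kit at 23579, 42967 and 47772 and Ly6a, for Sca-1, at 1767, 2184 and 2702. Pdzk1ip1, the gene behind the reporter, stood at 290, 3673 and 5659, so the GFP- HSC library lay 12.7-fold above the MPP library although both were sorted as negative for the reporter.

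The highest shared ratios belonged to genes that were near or at 0 in MPPs. Evc2, which encodes a protein at the base of the primary cilium that transmits Hedgehog signals (chromosome 5, 37338478 to 37425055), stood at 1, 1185 and 1577, and had log2 ratios of 7.63 and 8.04. Its neighbour Evc, the other part of the same complex, stood at 0, 428 and 691. Sdpr, now called Cavin2, a coat protein of caveolae, stood at 19, 3104 and 3599. Sfrp1, a secreted inhibitor of Wnt ligands, stood at 1, 764 and 1180, and Wwtr1, the Hippo pathway coactivator TAZ, at 0, 618 and 762. All 5 were therefore well detected in both HSC libraries and at 19 or less in the MPP library.

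Cell contact and matrix genes made up another group among the top 15. Jam2, a junctional adhesion molecule, stood at 5, 948 and 1231, and Matn4, a matrilin of the extracellular matrix, at 1, 547 and 554. Efna1, a membrane-bound ephrin ligand, stood at 0, 345 and 618, and Rhoj, a small GTPase, at 3, 782 and 1069. Retinoic acid was represented by Cyp26b1, which degrades it, at 0, 446 and 685, and by Rarb, one of its receptors, at 2, 624 and 842. Clca1, at 6, 963 and 796, was the only one of the top 15 with a lower level in GFP+ than in GFP- HSCs. The 15 also held Slamf1 and Tgm2, a protein-crosslinking transglutaminase.

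Among genes that reached a level of 5000 in some library, Tgm2 led with 152, 11121 and 14430 (chromosome 2, 158116405 to 158146392), which is 73.2-fold and 94.9-fold above MPPs. Vwf, the von Willebrand factor of platelets and endothelium, stood at 157, 7697 and 9964, and Mmrn1, a platelet multimerin, at 1330, 19967 and 26685. Grb10, an imprinted adaptor that restrains insulin and IGF receptors, stood at 215, 5321 and 6355. Tgfbr3, the TGF-beta co-receptor betaglycan, stood at 316, 4991 and 6448, and Apoe, a lipid carrier, at 607, 9245 and 9930. Mllt3, a chromatin reader used in transcription elongation, stood at 578, 5559 and 7984. Esam, an adhesion molecule used to sort HSCs, stood at 442, 4564 and 5395, and Trim47, a member of the TRIM family, at 455, 6731 and 8351. In each of these the level in GFP+ HSCs was above that in GFP- HSCs, and both lay far above MPPs.

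At the low end stood genes of lymphoid and myeloid effector proteins. Dntt, the terminal transferase that adds bases at antigen receptor joints (chromosome 19, 41029275 to 41059525), stood at 20577, 18 and 2, with log2 ratios of -9.81 and -11.52. Rag2, part of the recombinase for the same genes, stood at 354, 3 and 0. Mpo, the myeloperoxidase of neutrophil granules (chromosome 11, 87793784 to 87804412), stood at 135409, 2758 and 2750, and was 49.1-fold and 49.2-fold lower in the HSC fractions. The granule proteases Ctsg and Elane stood at 7969, 159 and 147 and at 16125, 557 and 425. These transcripts were therefore close to absent in HSCs for the lymphoid genes, and reduced to a few percent for the granule genes.

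Other genes with the lowest ratios had less familiar roles in these cells. Kcng1, a potassium channel subunit, stood at 909, 2 and 0, and Ccdc135, now called Drc7 and known from motile cilia, at 523, 1 and 0. Chdh, the choline dehydrogenase of mitochondria, stood at 1720, 16 and 24, and Sema3d, a secreted guidance protein, at 622, 6 and 0. Atp8b4, a member of the flippase family, stood at 4049, 83 and 82, Arpp21 at 718, 8 and 5, and Cmah, which modifies sialic acid, at 450, 6 and 4. Btla, an inhibitory receptor of lymphocytes, stood at 666, 11 and 0. The chemokine genes Ccl9 and Ccl3 were among the lowest too, at 4694, 104 and 61 and at 7594, 223 and 199. Mcpt8, a protease typical of basophils, stood at 530, 0 and 2.

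Gene lists of known function were then counted. Over all compared genes, 11.0% were at least 2-fold higher in both HSC fractions and 5.14% at least 2-fold lower. The list counts that follow are to be read against these shares. HSC marker genes, a list of 50 that all passed the filter, had 43 members at least 2-fold higher in both fractions and 0 lower, with a median shared ratio of 3.37. The list holds genes named in earlier work for this contrast, and Slamf1 of the sort gate, so its direction is not independent evidence. The exceptions were few. Vldlr, a lipoprotein receptor, stood at 1574, 1429 and 720, and Ifitm1 and Mettl7a1 had no shared ratio, at 9028, 7462 and 9416 and at 1476, 1678 and 1338. MPP genes, a list of 22, had 20 members at least 2-fold lower, with a median of -4.02. It includes Cd48 of the sort gate and was chosen with earlier results of these data known. Its direction is therefore not independent evidence either. Csf1r, the receptor for the macrophage growth factor, stood at 1666, 57 and 64, and Gcnt2, a glycosyltransferase, was the 1 member of that list higher in HSCs, at 13845, 18742 and 20301.

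**Figure D2:**
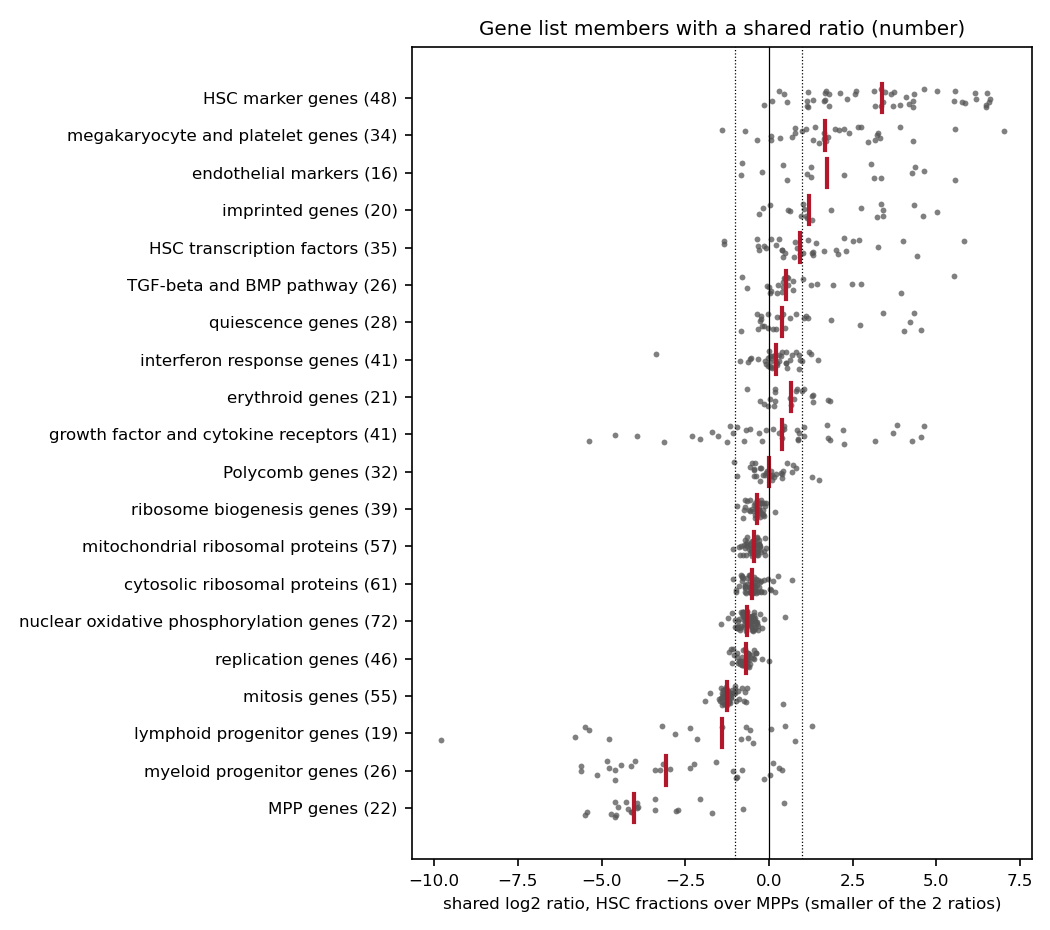
Shared log2 ratio of each member with one, for 20 gene lists, with the number of members drawn in brackets. Grey points are genes, red bars the list medians, dotted lines mark 2-fold and the solid line equal levels. HSC marker genes lie highest with a median of 3.37, MPP genes lowest with -4.02, and the lists of ribosomal and mitochondrial genes form narrow bands below 0.

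Myeloid progenitor genes were mostly lower in HSCs. Of 28 list members 26 passed the filter, with a median of -3.06. At least 2-fold lower in both fractions were 18 (69.2%, against 5.14% of all compared genes), and 0 were higher. Cst7, a cysteine protease inhibitor, stood at 1676, 43 and 13, and Clec12a, a lectin receptor, at 3217, 112 and 97. The transcription factors of this lineage were low too: Irf8, required for monocytes and dendritic cells, stood at 8046, 265 and 368, and Cebpa, required for granulocytes, at 1723, 102 and 71. Csf2ra, the alpha chain of the GM-CSF receptor, did not follow, at 1673, 1804 and 1976. Csf2rb2, a beta chain of the interleukin 3 receptor, stood at 417, 516 and 701 and is uncertain because it is a close copy of Csf2rb, at 2833, 835 and 863. Cebpb, a factor of emergency granulopoiesis, stood at 2667, 3501 and 4247. Effector genes were not uniformly lower: Lyz2, lysozyme, stood at 6797, 5986 and 6173 and Ctsc, the protease that activates granule enzymes, at 2621, 2696 and 2966.

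Lymphoid progenitor genes gave a wider spread. Of 30 members 29 were in the table and 19 passed the filter, with a median of -1.40. At least 2-fold lower were 10 (52.6%, against 5.14% of all compared genes) and higher 1 (5.26%, against 11.0%). Il7r, the receptor for interleukin 7, stood at 246, 0 and 1, and Tcf7, a T lineage factor, at 216, 19 and 10. Notch1, which starts T cell development, stood at 6240, 1725 and 2365. Gata3, a T cell factor also known in HSCs, went the other way at 620, 1527 and 1842, as did Ikzf2 at 670, 1150 and 1442 and Bcl11a at 4272, 5910 and 6470. In bulk samples, fewer cells of a kind and less RNA per cell cannot be told apart, and this applies to every gene above.

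Markers of mature cells were read in the same libraries. For dendritic cells 13 of 15 markers passed the filter, 8 at least 2-fold lower in HSCs and 2 higher, and the summed level of the list was 44559, 10946 and 12879. Most of that sum in MPPs came from Flt3, also the receptor gained by progenitors, at 19467, 1253 and 829 and from Irf8 at 8046, 265 and 368. Itgax, for CD11c, stood at 195, 0 and 0, and Siglech, of plasmacytoid dendritic cells, at 622, 7 and 18. Of 17 mast cell, basophil and eosinophil markers 6 passed, and 4 were at least 2-fold lower, while Gata2, which HSCs also express, stood at 4005, 25984 and 28245 and made up most of the summed level of 6387, 26337 and 28331. Prss34, a basophil protease, stood at 237, 0 and 2. Monocyte and macrophage markers summed to 11655, 7114 and 7133, with 5 of the 9 that passed at least 2-fold lower and 1 higher. T and NK cell markers summed to 9508, 2737 and 1960, most of it in MPPs from Nkg7 at 6433, 928 and 267, while Cd3e stood at 16, 0 and 0. B cell and plasma cell markers summed to 9292, 5842 and 6690, with Igj, the joining chain now called Jchain, at 2929, 46 and 412 and Pax5 at 7, 0 and 0. Neutrophil markers summed to 4661, 3834 and 4689, most of it from Padi4 at 3799, 2959 and 2833, and 0 of 8 were at least 2-fold apart in both fractions. Their median log2 ratio was -0.04 in GFP- and 0.83 in GFP+ HSCs, with Ngp at 94, 165 and 499 and Ltf at 86, 165 and 323. Several mature-cell markers were therefore present in the MPP library and near 0 in both HSC libraries. Their part in the myeloid and lymphoid results was not tested.

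Megakaryocyte and platelet genes lay on the stem cell side. Of 37 members 35 passed the filter, and 24 were at least 2-fold higher in both fractions and 1 lower, with a median of 1.68 against 0.00 over all genes with a shared ratio. Trpc6, a calcium channel of platelets, stood at 154, 3159 and 3849, and Treml1, a receptor stored in platelet granules, at 17, 284 and 216. Itgb3, the beta chain of the fibrinogen receptor, stood at 412, 2969 and 2180. Ppbp, a platelet chemokine of mature megakaryocytes, was the exception at 227, 70 and 83, and Plek, a major substrate of protein kinase C in platelets, stood at 7494, 4525 and 2128. Several members, Treml1 and Itgb3 among them, were lower in GFP+ than in GFP- HSCs.

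Gp5, a subunit of the platelet receptor for von Willebrand factor at 90, 1238 and 731, had GATA motifs near its start, and its promoter is shown because GATA factors act on platelet genes. The window covers the 120 bases before the start in RefSeq (GRCm38), chr16:30310782-30310901 on the minus strand, with capitals for the motif AGATAA, here read on the other strand.
Gp5: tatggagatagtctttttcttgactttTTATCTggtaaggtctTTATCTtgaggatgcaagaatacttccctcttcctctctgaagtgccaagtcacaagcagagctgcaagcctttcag
The motif AGATAA, searched on both strands in the 250 bases before the start, was present in 4 of 21 megakaryocyte and platelet genes that had exactly 1 listed start. Of genes past the filter 5.52% held it, of those at least 4-fold higher in both HSC fractions 7.72%, and of all promoters 10.4%. The share among genes higher in HSCs therefore lay between both backgrounds. F2rl2, another of the platelet genes with the motif, held it 95 bases before its start. Its shared log2 ratio was 0.06, against 2.95 for Gp5, so the motif near the start did not go with 1 level.

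Erythroid genes differed less. Of 34 members 27 passed the filter, with 6 (22.2%, against 11.0% of all compared genes) at least 2-fold higher and 0 lower. Another 6 had no shared ratio, and the median was 0.65. Epor, the erythropoietin receptor, stood at 105, 534 and 384, Zfpm1, the GATA partner FOG1, at 2554, 8874 and 8774, and Car2, a carbonic anhydrase, at 17129, 46482 and 42888. Tfrc, the transferrin receptor of iron uptake, was lower at 3154, 2019 and 1580. Globin rows were listed at 0 in all 3 libraries for Hba-a1, Hba-a2, Hbb-b1 and Hbb-b2, which need not mean absence.

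Transcription factors known from HSCs were higher in part. Of 36 on the list 17 were at least 2-fold higher and 2 lower, with a median of 0.93. Mecom, required for HSC maintenance, stood at 1220, 6936 and 8878, and Gata2 was 6.49-fold and 7.05-fold above MPPs. Runx1t1, a corepressor, stood at 2, 396 and 607, and Tcf15, a bHLH factor reported in quiescent HSCs, at 22, 576 and 671. Factors shared by stem cells and progenitors differed little, with Runx1 at 6034, 6240 and 6803 and Myb at 19199, 17237 and 17227. Gfi1, a zinc finger repressor, and Hmga2, a chromatin protein of fetal HSCs, were lower at 2103, 576 and 835 and at 617, 242 and 229. Satb1, a chromatin organizer of lymphoid cells, stood at 8841, 455 and 513.

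Homeobox genes of the Hoxb cluster pattern the embryo and are also read in HSCs. All 5 of its genes past the filter were higher, 4 of them at least 2-fold, with Hoxb5, a marker of long-term HSCs, at 17, 346 and 618, Hoxb2 at 32, 614 and 699 and Hoxb4 at 85, 167 and 211. The genes under the filter were also low in MPPs, with Hoxb9 at 3, 55 and 64. In the Hoxa cluster 7 genes passed and 3 were at least 2-fold higher. Hoxa5 stood at 340, 842 and 1152, while Hoxa9, which drives progenitor growth, stood at 1716, 1530 and 1627. Whether the clusters differed from each other was not tested.

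**Figure D3:**
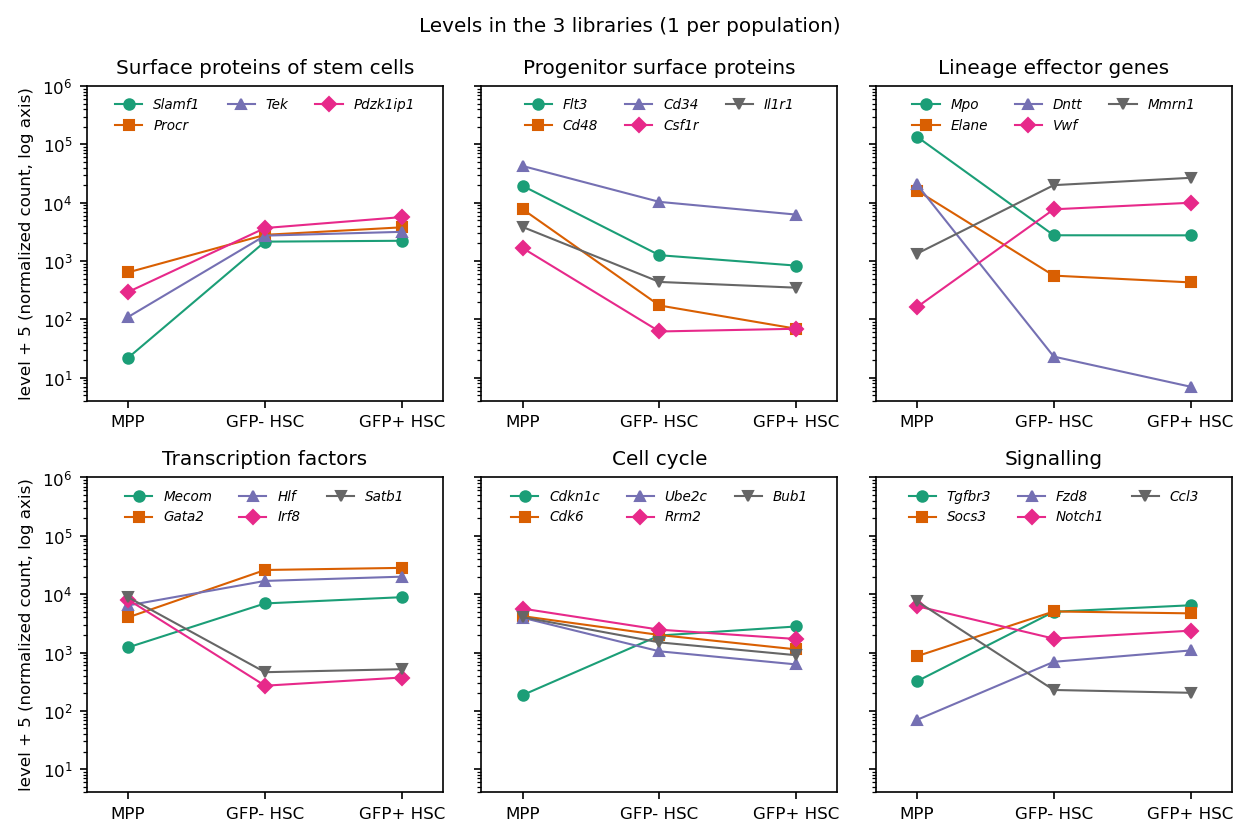
Level plus 5 on a log axis in the MPP, GFP- HSC and GFP+ HSC libraries for 4 or 5 genes in each of 6 groups, 1 line per gene and 1 library per point. Stem cell surface genes such as Slamf1 (17, 2144 and 2219) go up from MPPs to both HSC fractions, while Dntt (20577, 18 and 2) and Mpo (135409, 2758 and 2750) go down.

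Growth factor and cytokine receptors divided between the populations. Of 53 listed 46 passed the filter, 13 (28.3%, against 11.0% of all) at least 2-fold higher in HSCs and 11 (23.9%, against 5.14%) lower. On the HSC side were the angiopoietin receptor Tek, at 105, 2718 and 3160, and the related Tie1, at 1665, 7832 and 9696. Higher there too were Kdr, the VEGF receptor, at 18, 444 and 713 and Fgfr3 at 40, 638 and 927. The growth hormone receptor Ghr stood at 47, 673 and 960. Osmr, for oncostatin M, stood at 0, 113 and 112. On the MPP side, beside Flt3, Csf1r and Il7r, stood the interleukin 1 receptor Il1r1 at 3834, 433 and 344.

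Secreted ligands showed a like division, with 36 of 60 past the filter. At least 2-fold higher were 16 (44.4%, against 11.0% of all) and lower 8 (22.2%, against 5.14%). Angpt1, the ligand of Tek, was itself abundant and stood at 9529, 30246 and 31549, so ligand and receptor were both higher in HSCs. Bmp4 stood at 2, 134 and 182, Pdgfc at 13, 348 and 633 and Igf1 at 21, 254 and 370. Tnf, a main inflammatory cytokine, stood at 681, 67 and 31.

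In the TGF-beta and BMP pathway, whose ligands hold HSCs in quiescence, 30 of 41 genes passed the filter. At least 2-fold higher were 8 (26.7%, against 11.0% of all compared genes), and 0 were lower. Its receptors include Bmpr1a at 37, 232 and 253 and Bmpr2 at 43, 126 and 164, while Tgfbr1 stood at 1440, 1471 and 1570. Among its inhibitors, Skil stood at 1103, 9576 and 7407 and Tgif1 at 3192, 1831 and 1657. Neo1, neogenin, a receptor of netrins and RGM proteins, stood at 19, 1112 and 1291. Smad2, a signal-transducing Smad, hardly differed, at 2937, 2824 and 2845. Members higher in HSCs thus included receptors as well as an inhibitor.

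Other developmental pathways held genes of both directions, where 11.0% of all compared genes were at least 2-fold higher and 5.14% lower. Of 42 Wnt pathway genes 28 passed, 8 at least 2-fold higher and 3 lower: the receptors Ryk, Fzd4 and Fzd8 stood at 66, 1283 and 1746, at 21, 362 and 511 and at 65, 688 and 1080, and Ctnnb1, beta-catenin itself, at 12146, 12232 and 12447. Of 31 Notch pathway genes 26 passed, 6 higher and 4 lower. The target Hes1 stood at 202, 3403 and 3613 and the ligand Jag1 at 11, 158 and 212, while Dtx4, a regulator of Notch, stood at 1771, 122 and 124.

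Retinoic acid genes passed the filter in 13 of 23 cases, with 5 at least 2-fold higher and 1 lower. Aldh1a1, which makes retinoic acid, stood at 103, 3795 and 3700, and Dhrs3, which returns retinal to retinol, at 2218, 438 and 389. Of 19 Hedgehog genes 11 passed, with 4 higher and 0 lower: Boc, a co-receptor, stood at 16, 301 and 426 and the transducer Smo at 2346, 2371 and 2141. Of 27 Hippo genes 19 passed, with 5 higher and 0 lower, among them Amotl2 at 16, 1273 and 1455 and Cyr61, a target gene, at 20, 1289 and 1134. Another target, Ctgf, stood at 6, 4 and 1. Socs3, an inhibitor of cytokine signalling, stood at 859, 5053 and 4686 and Socs2 at 2402, 652 and 965. They belong to a list of 25 in which 2 (8%) were at least 2-fold higher and 1 (4%) lower. Over all compared genes the shares were 11.0% and 5.14%, so this list lay below both.

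Adhesion and junction genes included 42 past the filter of 48. At least 2-fold higher were 14 (33.3%, against 11.0% of all) and lower 9 (21.4%, against 5.14%). Of proteins known from endothelium, Jam3 stood at 57, 816 and 1185, Cldn5 at 12, 347 and 411 and Podxl at 75, 1007 and 1235, whereas Pecam1 and Cdh5, given with the endothelial markers, were not higher. The leukocyte integrin chain Itgal, part of LFA-1, was lower at 4691, 234 and 76. Of 8 caveola genes 5 were at least 2-fold higher, with Ptrf (cavin 1) at 341, 3312 and 3995 and Cav2 at 386, 1293 and 1738, whereas Cav1, the main caveolin, stood at 1, 6 and 2.

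Because many of these genes are shared with endothelium, its markers were read as a whole. Of 20, 16 passed the filter, 11 at least 2-fold higher in HSCs and 0 lower, and their summed level was 17125, 41404 and 49223. The 4 that did not pass were Cdh5, VE-cadherin, at 10, 10 and 3, Sox17 at 1, 4 and 0, Lyve1 at 0, 2 and 5 and Stab2 at 8, 45 and 48. Pecam1, for CD31, was lower in HSCs at 4053, 2304 and 2098, and Plvap, of capillaries, stood at 103, 89 and 65. Stromal markers summed to 3242, 1633 and 1673, most of it in MPPs from Pdgfrb at 2472, 589 and 503 and Spp1 at 515, 165 and 85. Col1a2, at 28, 457 and 679, and Col1a1, at 17, 22 and 294, went the other way, while Col3a1, Dcn, Lum and Acta2 stood at 5 or less in every library. The part of such cells in the results was not tested.

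Cell division genes were lower in HSCs almost without exception. Of 55 mitosis genes past the filter, of 56 listed, 54 were lower in both HSC fractions and 46 at least 2-fold, with a median of -1.24. The MPP library is common to both ratios, and each is given: the list medians were -1.24 in GFP- and -1.86 in GFP+ HSCs. Ube2c, the ubiquitin-conjugating enzyme of the anaphase-promoting complex (chromosome 2, 164769929 to 164772902), stood at 3942, 1044 and 620. Ect2, needed for cytokinesis, stood at 5311, 1573 and 1124, and the checkpoint kinase Bub1 at 4041, 1487 and 894. Every one of these 3 was lowest in the GFP+ library. Pttg1, securin, was the 1 member that was higher in HSCs, at 664, 894 and 891.

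Replication genes were all lower but by less. The 46 genes all passed the filter, all 46 were lower in both fractions and 5 at least 2-fold, with a median of -0.69. Rrm2, a subunit of ribonucleotide reductase, stood at 5653, 2459 and 1699, and Mcm10, which helps to start forks, at 2899, 1338 and 747. Subunits of the MCM helicase were well expressed in all populations, with Mcm6 at 32499, 20832 and 16136. In the G1 list of 22, 14 genes were lower and 8 higher, where 45.7% of all compared genes were lower and 45.7% higher. At least 2-fold lower was 1 (4.55%), near the 5.14% of all compared genes, and 0 were 2-fold higher. That gene was Cdk6, which sets the speed of exit from quiescence, at 4197, 1993 and 1127. Ccnd1, among the higher ones, stood at 311, 574 and 741.

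Of the inhibitors of cyclin-dependent kinases, 5 of 7 passed the filter and they did not move together. Cdkn1c, p57, the inhibitor known to hold HSCs in quiescence (chromosome 7, 143458339 to 143461059), stood at 181, 1951 and 2792, 10.8-fold and 15.4-fold above MPPs. Cdkn2d stood at 1283, 2289 and 2185. The others were lower in both HSC fractions, Cdkn1a, p21, at 1912, 1667 and 1273, Cdkn1b, p27, at 311, 242 and 173 and Cdkn2c, p18, at 899, 506 and 250. Only Cdkn1c was 2-fold apart in both fractions among these 5.

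Promoters of mitosis genes commonly carry a CCAAT box and a CHR element, a pair through which the DREAM and MuvB complexes act. The following 4, from mitosis genes with both motifs within 120 bases of a single listed start, show that arrangement (RefSeq, GRCm38). Each window holds the 120 bases before the start, and capitals mark CCAAT and TTTGAA on either strand, ATTGG and TTCAAA on the other. The windows are chr2:164769809-164769928 on the plus strand, chr4:118437344-118437463 on the minus strand, chr19:37376262-37376381 on the plus strand and chr15:102296173-102296292 on the plus strand.
Ube2c: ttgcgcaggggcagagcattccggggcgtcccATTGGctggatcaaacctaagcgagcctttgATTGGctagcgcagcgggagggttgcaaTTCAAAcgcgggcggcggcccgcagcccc
Cdc20: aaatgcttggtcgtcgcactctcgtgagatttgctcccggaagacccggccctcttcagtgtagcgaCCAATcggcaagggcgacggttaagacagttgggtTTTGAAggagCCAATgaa
Kif11: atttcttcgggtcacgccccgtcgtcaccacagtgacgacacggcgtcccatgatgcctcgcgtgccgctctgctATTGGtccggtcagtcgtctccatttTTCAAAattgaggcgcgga
Espl1: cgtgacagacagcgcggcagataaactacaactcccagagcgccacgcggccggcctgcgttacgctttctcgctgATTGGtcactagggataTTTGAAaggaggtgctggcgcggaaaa
In all 4 the CHR element lay within 29 bases of the start, and a CCAAT box lay further from the start than it did. Cdc20, an activator of the anaphase-promoting complex, stood at 5317, 2064 and 1462, Kif11, a spindle motor, at 9227, 3731 and 2524, and Espl1, separase, at 4612, 1892 and 1058.

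Over the 250 bases before the start, both motifs were present in 12 of 41 mitosis genes with 1 listed start (29.3%), against 3.85% of genes past the filter and 5.82% of all promoters of that length. The CHR element TTTGAA alone was present in 34.1% of mitosis and 9.38% of replication promoters, against 10.2% of genes past the filter. CCAAT was present in 70.7% and 65.6%, against 37.1%. An E2F motif in any of 4 forms, TTTGGCGC, TTTCCCGC, TTTGCCGC and TTTCGCGC, was present in 21.9% of replication and 7.32% of mitosis promoters, against 3.88%. A match of letters describes these windows and does not show that a factor binds there.

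**Figure D4:**
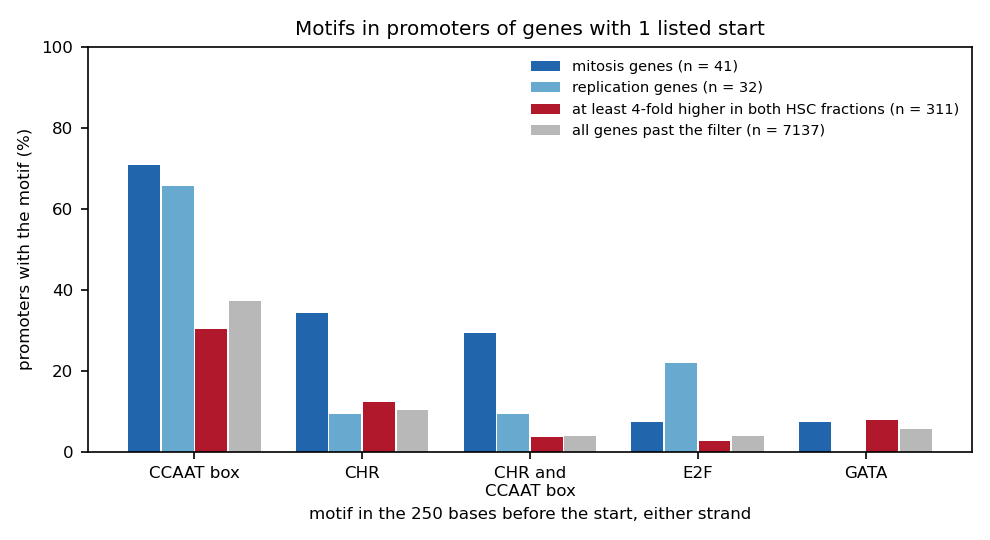
Share of promoters, in percent, that hold each motif on either strand in the 250 bases before the start, for genes with 1 listed start. Bars stand for 41 mitosis genes, 32 replication genes, 311 genes at least 4-fold higher in both HSC fractions and 7137 genes past the filter. The pair of CHR and CCAAT box reaches 29.3% in mitosis genes against 3.85% in all, and E2F motifs 21.9% in replication genes against 3.88%.

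Genes of growth and energy metabolism were lower in HSCs by small amounts in nearly every member. Of 72 nuclear oxidative phosphorylation genes past the filter 71 were lower, with a median of -0.64. At least 2-fold lower were 5 (6.94%), near the 5.14% of all compared genes. Ndufa4, a subunit of complex IV, stood at 6690, 2458 and 1706 and Cox5a, of the same complex, at 5762, 2473 and 1746. Of 58 mitochondrial ribosomal protein genes 57 were lower, with a median of -0.45, and of 40 ribosome biogenesis genes 38 were lower, with a median of -0.35. Npm1, a nucleolar chaperone of ribosome assembly, stood at 7464, 4407 and 3576. Of 26 nucleotide synthesis genes 25 were lower, Mthfd2 of mitochondrial folate metabolism the most, at 879, 372 and 230. Against these, 45.7% of all compared genes were lower in both fractions.

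Cytosolic ribosomal protein genes were lower in 55 of 65 cases and higher in 6, with a median of -0.51 and 1 member at least 2-fold lower, Rpl35a at 437, 207 and 185. These genes have many processed copies in the genome among which reads can be split, and their levels are uncertain for that reason. Rps13 and Rps12, at 131, 213 and 237 and at 45, 55 and 72, are among those that may be affected. The housekeeping list was lower as well, in 12 of 15 genes, with Hprt at 9164, 5939 and 4937.

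Transcript length moved with these ratios. In the tenth of genes with the shortest transcripts, up to 1463 nt, the median ratio was -0.27 in GFP- and -0.34 in GFP+ HSCs, and in the tenth with the longest, from 6748 nt, it was 0.22 and 0.25. Ribosomal and mitochondrial subunit genes have short transcripts. With the trend on length and GC content removed, the median of oxidative phosphorylation genes was -0.38 in place of -0.64 and that of cytosolic ribosomal protein genes -0.24 in place of -0.51. The mitosis median was -1.25 and the replication median -0.68 after the same step, both close to their first values. Genes at least 2-fold higher had a median transcript of 3794 nt and those lower one of 3117.5 nt, against 3402 nt over all compared genes.

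**Figure D5:**
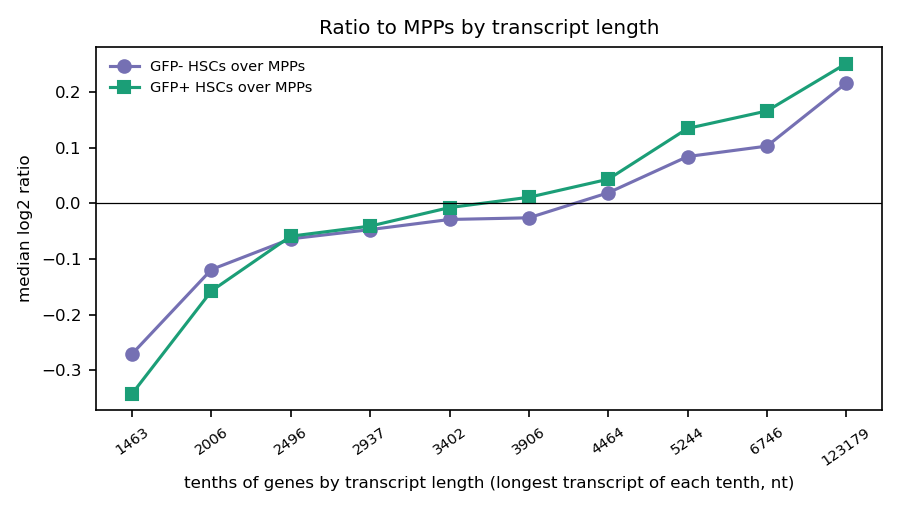
Median log2 ratio to MPPs of genes in 10 equal groups by transcript length, labelled by the longest transcript of each group in nt, for GFP- HSCs (circles) and GFP+ HSCs (squares). The medians climb from -0.27 and -0.34 in the shortest group to 0.22 and 0.25 in the longest.

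Glycolysis genes differed by isoform, with no common direction. Of 25 past the filter 5 were at least 2-fold higher and 2 lower, with a median of 0.02. Eno2, the neuronal enolase, stood at 17, 240 and 332, Ldhb, a lactate dehydrogenase subunit, at 726, 1943 and 2506, and the glucose transporter Slc2a3 at 3209, 8576 and 8942. Hk3, the hexokinase of myeloid cells, stood at 6575, 1378 and 1342, while Hk1 stood at 10033, 13423 and 13253. Gapdh and Pgk1 have processed copies and low listed levels, at 171, 170 and 152 and at 258, 174 and 160, and are uncertain.

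Genes tied to quiescence were higher in part, with a median of 0.39. At least 2-fold higher were 10 of 29 (34.5%, against 11.0% of all compared genes), and 0 were lower. Ndn, necdin, a growth suppressor, stood at 87, 1836 and 2383, and Pdk4, which shuts pyruvate out of the mitochondrial cycle, at 3, 144 and 176. Epas1, a hypoxia-inducible factor, stood at 1, 138 and 134, whereas Hif1a stood at 4083, 4030 and 3988. Rgs2 and Foxo3 were lower, at 16491, 9168 and 7531 and at 310, 248 and 207.

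Imprinted genes, which are transcribed from a single parental copy and many of which restrain growth, were higher in HSCs in 18 of the 21 that passed the filter of 33 listed. Of the 21, 14 (66.7%, against 11.0% of all compared genes) were at least 2-fold higher and 0 lower, with a median of 1.21. Meg3, a maternal long noncoding RNA, stood at 1, 188 and 421, and Phlda2, a growth-limiting gene of the placenta, at 19, 239 and 264. H19 and Igf2 were under the filter, at 2, 34 and 31 and at 0, 32 and 46, and Gnas stood at 27775, 24331 and 22698.

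Immediate-early genes, which respond within minutes to stimuli and to handling of cells, had a median of 0.25. At least 2-fold higher in HSCs were 8 of 34 (23.5%, against 11.0% of all) and lower 1 (2.94%, against 5.14%). The nuclear receptor Nr4a1 stood at 13943, 50260 and 60214, Egr1 at 65702, 145864 and 142259 and Fos at 154546, 173432 and 161989. The heat shock genes Hspa1a and Hspa1b, near-identical copies whose separate levels are uncertain, went the other way, at 7456, 2950 and 1963 and at 10147, 5084 and 3459. The part of sorting and handling in these values was not tested.

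Interferon response genes were higher in 31 of 45 cases, where 45.7% of all compared genes were, with 3 at least 2-fold higher (11.0% of all), 1 lower and a median of 0.22. Gbp6, a guanylate-binding protein, stood at 126, 356 and 655 and Ifih1, the RNA sensor MDA5, at 955, 2304 and 2300, while Ifi27l2a stood at 329, 27 and 21. MHC class II genes were lower in 8 of 10 cases, with H2-Ob, a chaperone subunit of peptide loading, at 2891, 596 and 262 and H2-Ab1 at 4701, 2234 and 2600. MHC class I genes were higher in 9 of 12 cases, none of them 2-fold, with H2-K1 at 45494, 57502 and 60876; these genes resemble each other closely and their separate levels are uncertain. Of 8 Gimap GTPases, small proteins of lymphocytes, 3 (37.5%, against 11.0% of all) were at least 2-fold higher, Gimap3 at 57, 349 and 842 among them. Gimap7 was lower at 355, 46 and 40.

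Chromatin genes differed by member. Polycomb genes split evenly, 16 higher and 16 lower, with a median of 0.00. Cbx7, the Polycomb subunit tied to self-renewal, stood at 606, 1735 and 2471 and Cbx2 at 1795, 870 and 861. Ezh1, the methyltransferase of resting cells, stood at 1997, 3255 and 4054 and Ezh2, that of dividing cells, at 4947, 2527 and 1788, so the paralogs of each pair went opposite ways. Among DNA methylation genes Dnmt1, the maintenance enzyme, stood at 19825, 11882 and 10522 and its partner Uhrf1 at 8051, 3863 and 2748, while Tet2 stood at 1191, 1476 and 1624. Histone genes of the Hist clusters, whose transcripts mostly lack a poly(A) tail and are poorly caught by this chemistry, passed the filter in 11 of 39 cases, 5 at least 2-fold lower, with Hist1h1b at 550, 220 and 58.

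DNA repair genes were lower in 45 of 58 cases, where 45.7% of all compared genes were, and 5 were at least 2-fold lower (5.14% of all), Fancd2 of the Fanconi pathway the most, at 1991, 794 and 528. Genes induced by p53 had no common direction, with 4 of 27 (14.8%) at least 2-fold higher and 2 (7.41%) lower, near the 11.0% and 5.14% of all compared genes. The death receptor Fas stood at 16, 126 and 157 and Pmaip1, the death factor Noxa, at 1129, 181 and 137. Of 27 ABC transporters past the filter 5 (18.5%, against 11.0% of all) were at least 2-fold higher and 0 lower. Abcg2 and Abcb1a, the pumps that expel dyes and drugs from stem cells, stood at 1806, 4049 and 4486 and at 28, 358 and 535, and Abcg3 at 78, 1781 and 2636.

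Some genes with large differences lay side by side. Of 9191 pairs of consecutive compared genes within 100 kb, 70 (0.762%) had both at least 4-fold apart from MPPs, of which 39 were higher together, 25 lower together and 6 opposite. Evc and Evc2 lie 1530 bases apart between their RefSeq gene bounds. Gbp8, Gbp9 and Gbp4 on chromosome 5 stood at 68, 725 and 1137, at 48, 770 and 1331 and at 102, 883 and 1639, and are family members with related sequences. Ccl3 and Ccl4 on chromosome 11 were lower together, with Ccl4 at 6815, 1039 and 1174. Cd48 and Slamf1, 61872 bases apart, were 1 of the 6 opposite pairs, and Slpi with Matn4 another, with Slpi, a protease inhibitor, at 752, 29 and 37. Pairs that overlap or that are copies of each other can share reads, since the strand was not recorded.

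The X-inactivation transcript Xist stood at 2262, 6137 and 3087, and Y-linked genes were present in each library, with Ddx3y at 2490, 2475 and 3251. The labels do not give the sex of the mice, and the part of sex in the ratios was not tested. On the X chromosome lay 73 of the genes at least 2-fold higher, 13 of those lower and 406 of all compared. The libraries had summed levels of 25311805 to 26689660 and 15462 to 15834 genes above 0, after the authors' scaling, so their sequencing depth is unknown.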

How the data were processed

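RNA of 3 sorted populations was read with SMART-seq v4, per the labels' protocols, a PCR method on full-length transcripts without molecular identifiers or strand. STAR and DESeq2 with the build mm10 are named, without versions, per the submitters' processing notes; annotation and counting tool were not given in the sources used here. Levels were deposited by the authors as 1 table of normalized counts, rounded to whole numbers, a score here because reads could not be recovered. It has 23420 rows; 27 with a date for a symbol were left out, and 6532 of the rest were 0 in all libraries. Without depth, no counting interval was made. Symbols are printed as in the table.

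Ratios were log2 with 5 added to each level, which understates low genes; folds of single genes are ratios of levels. A mean of at least 50 kept 11951 genes and 99.8% of the summed levels. There was 1 library per population, hence no test and no p-value. The members and gene lists were chosen with earlier results of these data known, and cover 58 lists. Named were the 15 highest and 15 lowest shared ratios at a mean of 100 or more, the 10 highest and lowest with a library of at least 5000, up to 6 members of a list in its main direction and 3 against it, and all sort genes, CDK inhibitors and genes with ratios of opposite sign that differed by 1 or more; predicted genes were left out, and some genes that this rule names are not reported here. Other members, and the neighbour pairs, were picked after their values were seen. Coordinates and promoters came from RefSeq (GRCm38.p6, the build mm10), found for 11904 genes; 7137 had exactly 1 listed start, and of 7107 such starts 84.9% lay within a GENCODE M21 transcript of the same gene. Length and GC content came from GENCODE M21, for 99.3% of genes. Sdpr, Ccdc135, Igj, Ptrf and Hist1h1b are older names of Cavin2, Drc7, Jchain, Cavin1 and H1f5. The calculation was tested on simulated levels. All genes put in at 4-fold or 0.25-fold were recovered, but only 73.3% of those at 2.5-fold and 90% of those at 0.4-fold. Alternatives were other pseudocounts, minimum levels, scalings, a trend on level removed, a 4-fold threshold, the mean of both HSC libraries and each alone; removal of the trend on length and GC content was added after the data were seen. Software was matplotlib 3.10.9, statsmodels 0.14.6, scipy 1.17.1, pandas 2.3.3, numpy 2.4.6 and Python 3.11.15.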

Additional observations from a re-analysis of the deposited data

Results flagged for a closer look

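In all, 13 genes with a mean of 100 or more lay on opposite sides of MPPs in the 2 HSC fractions, with log2 ratios that differed by 1 or more. The value given is the ratio of GFP+ HSCs minus that of GFP- HSCs, and the difference was not tested, since each fraction gave 1 library. Ski, a repressor of TGF-beta signalling, was the only one higher in GFP+ HSCs, at 1364, 1102 and 5247 in MPPs, GFP- and GFP+ HSCs and a difference of 2.25. Erythroid genes were among the others: Car1 stood at 1554, 1791 and 459, with a difference of -1.95, Ermap at 452, 540 and 207 (-1.36), Klf1, the erythroid Krüppel-like factor, at 220, 333 and 152 (-1.11), and Add2, of the red cell skeleton, at 170, 176 and 81 (-1.07). Sphk1, a sphingosine kinase, stood at 125, 200 and 62 (-1.61), Eml2 at 1102, 1300 and 450 (-1.52) and the stress cytokine Gdf15 at 194, 299 and 118 (-1.31). The amino acid transporter Slc38a5 stood at 100, 176 and 70 (-1.27), Pxmp2, of peroxisomes, at 141, 159 and 66 (-1.21) and the phosphate exporter Xpr1 at 1511, 2056 and 1000 (-1.04). Serpine2, a protease inhibitor, stood at 258, 363 and 177 (-1.02) and Id3, an inhibitor of bHLH factors, at 659, 758 and 375 (-1.01).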

How the results depend on the processing

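Of 1310 genes at least 2-fold higher in both HSC fractions, 811 were counted with a minimum mean of 200, 1977 with no minimum and 578 at 4-fold. Of 614 lower, 1022 were counted with no minimum, 220 at 4-fold and 1029 in GFP+ HSCs alone. Genes with opposite signs in the HSC fractions numbered 991, and 1539 with no minimum. Of the counts under alternatives, 28 stayed within 1.5 times and these 7 did not. None of the named genes with a 2-fold ratio changed sign, nor did the medians of lists in which a large majority of members went the same way. Medians of mixed lists could change sign. That of stromal markers was -0.66 for the shared ratio and 0.24 in GFP- HSCs alone, and that of neutrophil markers 0.34 and -0.04. Higher genes made up 68.1% of 2-fold genes, and 61.4% to 72.5% under the alternatives. Of list medians under alternatives 670 moved by at most 1.5-fold and 26 by more, mostly in short marker lists when the minimum changed. Of the ratios of named genes 4854 moved by at most 1.5-fold and 185 by more. Among the latter, 68 were with GFP+ HSCs alone, 67 with a pseudocount of 20 and 27 with a pseudocount of 1. No paired analysis was possible because each population has 1 library. With 1 library each and unknown depth, variation between sorts cannot be told apart from the differences given.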
